A study of Mus musculus with 22 samples.

Results

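The genes described here are the nuclear genes of oxidative phosphorylation, taken as every gene whose symbol starts with Nduf, Uqcr or Atp5, with Cox4 to Cox8, or is Sdha, Sdhb, Sdhc or Sdhd. The rule found 86 of the 11208 genes in the table of normalized counts. Of these, 84 were summarised by complex: 36 subunits of complex I, 7 complex I assembly factors, the 4 subunits of complex II, 8 of complex III, 12 of complex IV and 17 of complex V. Ndufa4 was placed with complex IV, where its protein is now assigned, and so was Cox7a2l, which links complexes III and IV. Ndufab1-ps, annotated as a processed pseudogene, and Ndufb1-ps, annotated as a long noncoding RNA, were kept apart. Members of the family that the table does not list, such as Ndufa4l2, Cox4i2, Cox6a2, Cox6b2 and Cox7a1, were not analysed here.

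The cells were NIH/3T3 mouse fibroblasts, an immortalised embryonic line, that carried either a stably integrated construct expressing E2F1 under doxycycline or the matching empty vector (EV). E2F1 is a transcription factor that drives genes for entry into S phase. Both lines were starved for 48 h in 0.25% serum. The E2F1 line then received 500 ng/ml doxycycline for 2, 6 or 12 h, the EV line received the same doxycycline, and the EV line alone received 10% serum for 2, 6 or 12 h. With the 0 h cells of each line this made 11 groups of 2 libraries, 22 in all. Every group thus came from starved cells, and the EV 0 h libraries were the baseline of both the doxycycline and the serum series of that line. Whether each line was 1 clone is not given in the sources used here, nor is it stated that the replicates came from separate cultures, so the p-values measure the spread between these libraries, which may be technical.

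In the respiratory chain, complex I takes electrons from NADH and complex II from succinate. Both pass them through ubiquinone to complex III, and cytochrome c carries them on to complex IV, which reduces oxygen. Complex V, the ATP synthase, uses the proton gradient built by complexes I, III and IV to make ATP. Most subunits are encoded in the nucleus and imported, a small core is encoded by mitochondrial DNA, and assembly factors help to build the complexes without staying in them.

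The sum of normalized counts in a library lay between 34014608 and 46057140, and all 12 fibroblast markers looked for were listed. Of 20 markers of epithelial, immune, endothelial and muscle cells, 1 was listed, the macrophage receptor gene Csf1r. It was at 33 to 229 normalized counts in the 16 libraries without serum and at 365 to 735 in the 6 with serum, which do not overlap, with serum changes of 1.71, 1.49 and 1.46 at 2, 6 and 12 h (adjusted p of 0.00191, 0.00591 and 0.0072). Its part in the serum results, and in the E2F1 change minus the serum change (-1.97, adjusted p = 0.0138), was not tested. E2f1 itself held 1703 and 1637 counts in the untreated E2F1 line, 3806 and 3602 after 6 h and 2683 and 2845 after 12 h of doxycycline, a log2 change of 1.15 ± 0.11 (SE) at 6 h and 0.73 ± 0.11 at 12 h. In the EV line E2f1 fell with serum at 2 h, to 802 and 740 from 1635 and 1655, and was at 4615 and 4247 at 12 h. The Y-linked gene Ddx3y told the lines apart, at 316 to 580 counts in the E2F1 line and 9 and 4 in the EV line at 0 h, and some EV libraries lay between: 103 and 71 at 2 h and 31 and 18 at 6 h of doxycycline, 132 and 170 at 2 h of serum, 48 and 35 at 6 h and 29 and 19 at 12 h of serum. What part this has in the results was not tested, and the serum values at 2 h rest on the libraries with the most. Leaving out the EV libraries at 2 h of doxycycline gave 55 in place of 57 members called at 12 h of serum. It gave 22 in place of 24 for the E2F1 change minus the EV change at 12 h, and moved each other count by at most 1. Each group has its own mean, so this left the other log2 changes as they were and altered only the estimated spread. It therefore cannot show what part the Ddx3y values have. The libraries at 2 h of serum were left out only 1 at a time.

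Serum was the treatment with the most calls, among the members as over all genes. After 12 h, 51 of the 84 genes (60.7%) were higher than at 0 h and 6 (7.14%) were lower. Of all 11208 genes 65.7% differed, 36% higher and 29.7% lower. The members thus differed from all genes in the direction of the calls, while the share called was close. Their median log2 change was 0.31 against 0.05 for all genes, so the typical rise was small. The rises over 1.2 on this scale were in Ndufaf4, an assembly factor of complex I, Uqcrq of complex III, Cox5a of complex IV and Atp5g1 of complex V. In each complex the risers outnumbered the genes that fell, with 18 higher and 4 lower in complex I, 4 and 0 among its assembly factors, 2 and 0 in complex II, 6 and 0 in complex III, 9 and 1 in complex IV and 12 and 1 in complex V. Median changes were 0.26, 0.85, 0.29, 0.41, 0.32 and 0.31 in that order. The counts depend on how libraries are scaled: with quantile normalization 29 rose and 10 fell, with libraries brought to equal totals 39 and 7, and with trends over GC content and length removed 40 and 8. In bulk RNA, fewer cells of a type and less RNA per cell cannot be told apart.

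**Figure D1:**
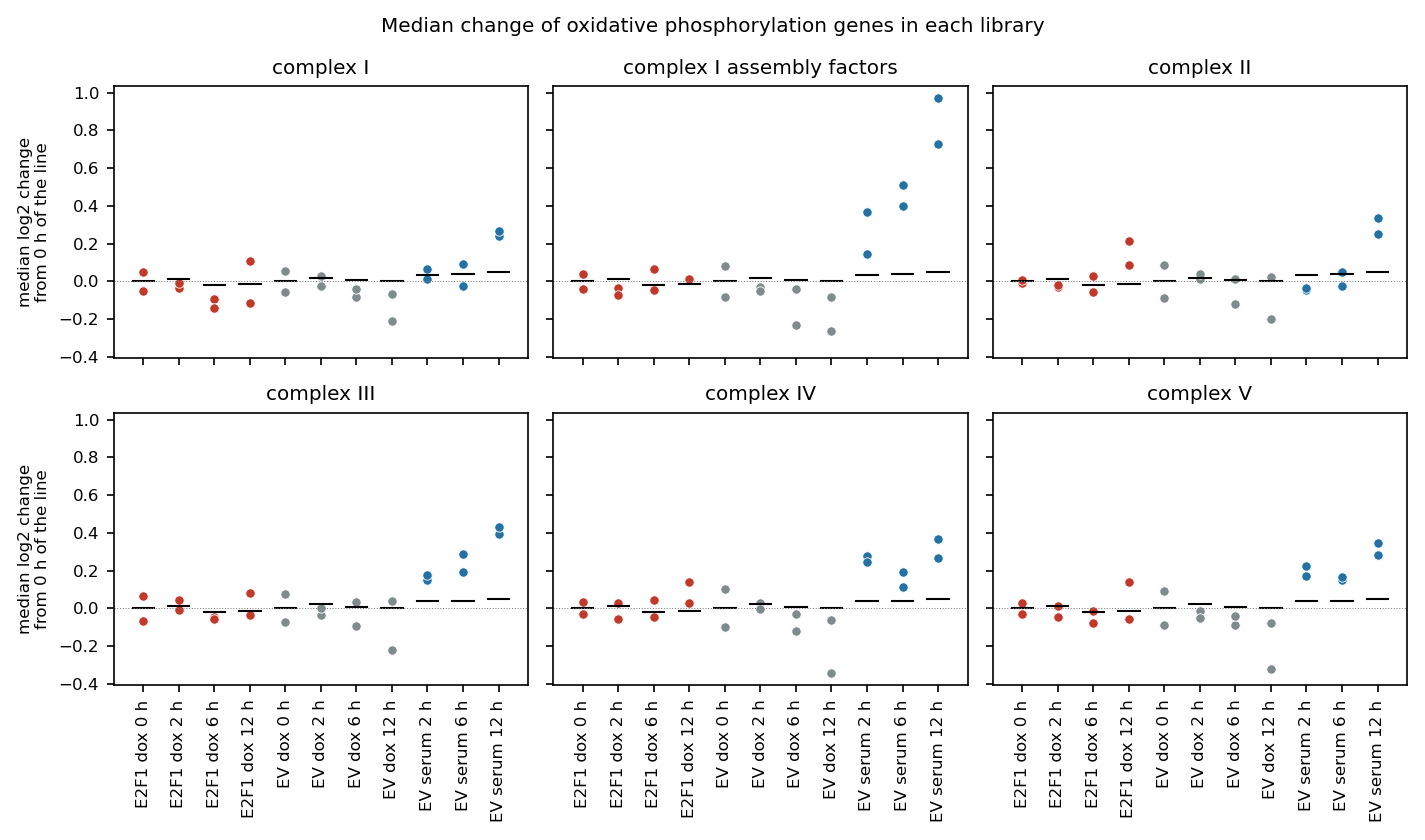
Each point is 1 library and gives the median log2 change of a complex's genes from the mean of the 0 h libraries of its own line, over the 11 groups (red, E2F1 line with doxycycline; grey, EV line with doxycycline; blue, EV line with serum). Black dashes give the median over all genes; the serum points at 12 h lie above the dash in all 6 panels, and assembly factors of complex I reach the highest values.

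The counts changed with time. At 2 h of serum, in the libraries with the most Ddx3y among those of the EV line, 24 members were higher and 7 lower (28.6% and 8.33%), where 70.9% of all genes differed (37.5% higher, 33.5% lower), and their median change was 0.15 against 0.03. Both member shares lay below those of all genes. This early direction rests on the scaling. With quantile normalization 14 were higher and 26 lower, and with equal totals 4 and 41, when the median of all genes also moved, to -0.05 and -0.35. At 2 h complex IV had 7 genes higher and 1 lower and complex V had 5 and 0, whereas complex I had 7 and 4 and complex II had 0 and 1. At 6 h 21 were higher and 7 lower, beside 67.5% of all genes (36.5% higher, 31% lower), and the split was 16 and 17 with quantile normalization, 9 and 19 with equal totals and 21 and 12 with GC and length trends removed. Over the 3 times, 15 members were higher at each, 22 passed the threshold as higher at 12 h but not before, 5 at 6 and 12 h, and 8 at 2 and 12 h but not 6 h. Another 20 were called at none of the times. These patterns were not counted over all genes, so whether they are particular to the members is not shown. They also rest on the calls at 2 h and 6 h, which shifted with the scaling. The share of each library's counts held by the 84 genes was 0.767% and 0.829% at EV 0 h, 0.689% and 0.687% at 2 h of serum and 0.915% and 0.944% at 12 h, so that among the EV 0 h and serum libraries those at 2 h of serum were lowest and those at 12 h highest.

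**Figure D2:**
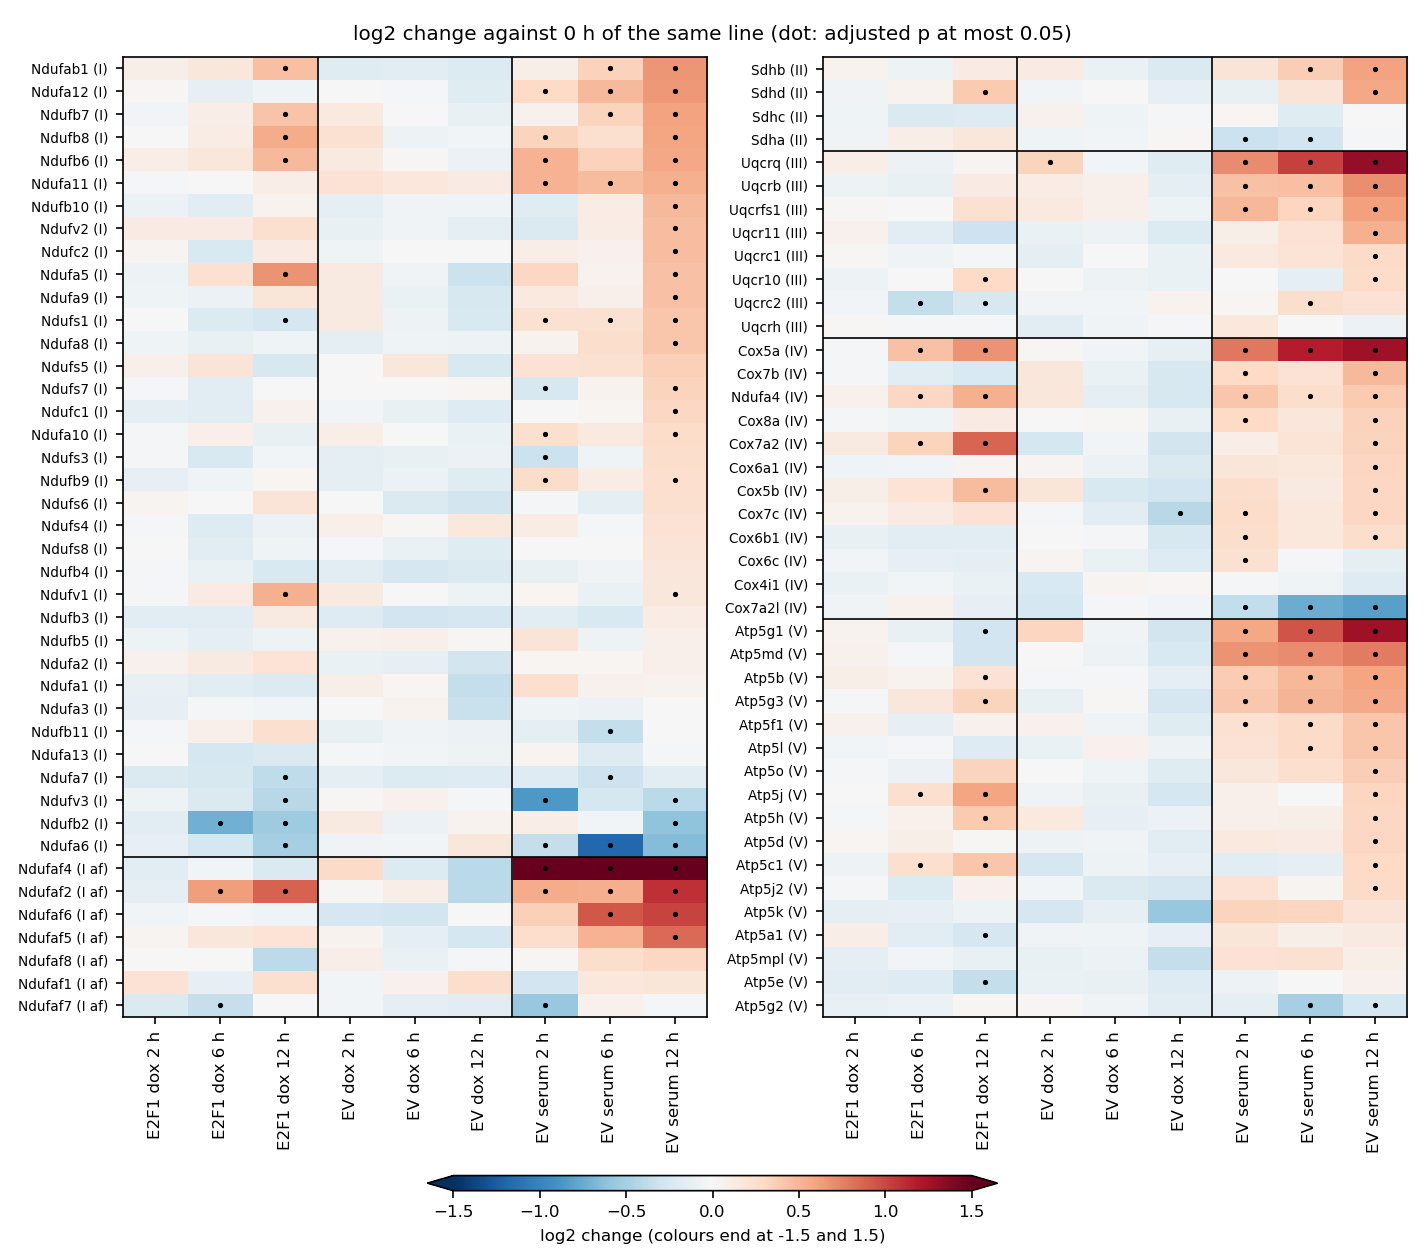
Log2 change of all but 1 of the 84 genes (rows, grouped by complex in roman numerals, af for assembly factor) against 0 h of the same line in 9 comparisons (columns). Colours end at -1.5 and 1.5, and dots mark an adjusted p of at most 0.05; the serum column at 12 h, at the far right of each panel, holds the most dots.

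Among assembly factors, which are needed to build complex I, Ndufaf4 changed most of all 84 genes. It had 356 and 394 normalized counts at EV 0 h, 1708 and 1635 at 2 h of serum, 1475 and 1236 at 6 h and 1136 and 1170 at 12 h. All 6 serum libraries lay above both 0 h libraries, highest at 2 h. The log2 changes were 2.15, 1.85 and 1.62 ± 0.14 (SE), with adjusted p of 1.19e-10, 1.56e-09 and 1.28e-08. The E2F1 line held 474 and 497 counts of it before and 464 and 373 after 12 h of doxycycline, a change of -0.22 that missed the threshold (adjusted p = 0.166). The 12 h changes of serum and E2F1 differed by -1.84 ± 0.19 (E2F1 minus serum, adjusted p = 5.61e-07). Ndufaf4 lies on the plus strand at chr4:24898083-24905001.

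Ndufaf2, a factor of the last steps of complex I assembly, rose in both settings. Under serum it went from 325 and 365 to 486 and 531 at 2 h, 519 and 491 at 6 h and 741 and 728 at 12 h (log2 change 1.09 ± 0.13 at 12 h, adjusted p = 8.21e-07). Doxycycline in the E2F1 line took it from 386 and 352 to 614 and 529 at 6 h and 667 and 701 at 12 h (0.63, adjusted p = 0.000566, and 0.89 ± 0.13, adjusted p = 1.04e-05). The libraries at 12 h did not overlap those at 0 h in either case. In the EV line with doxycycline the 12 h values were 254 and 267, and the E2F1 change exceeded the EV change by 1.29 ± 0.18 (adjusted p = 1.27e-05). The gene, at chr13:108002715-108158623 on the minus strand, overlaps Smim15, and strand use in the counting is not given in the sources used here. Ndufaf6 rose with serum from 165 and 114 to 251 and 309 at 12 h (1.02 ± 0.22, adjusted p = 0.000642), and Ndufaf5 from 291 and 271 to 466 and 551 (0.85 ± 0.25, adjusted p = 0.0058). Ndufaf7, a methyltransferase that acts on a complex I subunit, instead fell at 2 h, from 1062 and 926 to 685 and 651 (-0.57 ± 0.12, adjusted p = 0.000414), and was back at 1044 and 1027 at 6 h.

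The subunits of complex I moved less and in both directions. Ndufab1, the acyl carrier protein that also serves mitochondrial fatty acid synthesis, rose at 12 h of serum from 1093 and 1192 to 1887 and 1731 (0.66 ± 0.09, adjusted p = 2.2e-06) and in the E2F1 line from 892 and 897 to 1174 and 1266 (0.45, adjusted p = 0.000185). It has near-identical copies in transcripts of 2 other annotated genes, so its counts are uncertain. The copy listed as Ndufab1-ps spanned 54 to 258 counts over the 22 libraries, and Ndufb1-ps 627 to 1281. Ndufs1, a core iron-sulphur subunit whose gene overlaps Eef1b2 among others, had opposite calls under the stimuli. It was higher with serum, 2207 and 2256 against 3066 and 2912 at 12 h (0.42 ± 0.09, adjusted p = 0.000369), and lower in the E2F1 line, 2942 and 2739 against 2278 and 2496 (-0.25 ± 0.09, adjusted p = 0.0182). The fall in the E2F1 line missed the threshold without the first library at 0 h (-0.20, adjusted p = 0.128) and without the first at 12 h (-0.19, adjusted p = 0.154). The difference of the 2 changes was -0.67 ± 0.12 (adjusted p = 0.000214). Against the EV line with doxycycline at 12 h, the E2F1 change of Ndufs1 differed by -0.02 ± 0.12 (adjusted p = 0.911). The fall was thus not shown to exceed the change of the EV line.

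Ndufv1, the subunit that binds FMN and accepts electrons from NADH, had the larger change in the E2F1 line. In the E2F1 line it was at 4261 and 4186 at 0 h and 5880 and 6372 at 12 h, with no overlap (0.54 ± 0.07, adjusted p = 1.89e-06). Under serum it went from 4280 and 4043 to 4628 and 4702 (0.17, adjusted p = 0.0374), a call that turned to -0.01 with quantile normalization and was lost without the second EV 0 h library (0.12, adjusted p = 0.197) or either serum library (0.18, adjusted p = 0.0841, and 0.15, adjusted p = 0.127). The E2F1 change was larger by 0.37 ± 0.09 (adjusted p = 0.0035). Ndufa5, an accessory subunit of the peripheral arm, rose in the E2F1 line from 1585 and 1319 to 2088 and 2548 (0.67 ± 0.14, adjusted p = 0.000349).

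A small group of complex I subunits fell. Ndufa6, which docks the acyl carrier protein onto the complex, was at 2240 and 2585 at EV 0 h, 937 and 1201 at 6 h of serum and 1403 and 1678 at 12 h. Both serum times lay below both 0 h libraries, lowest at 6 h (-1.18 ± 0.13, adjusted p = 1.87e-07, and -0.65, adjusted p = 0.000209). In the E2F1 line Ndufa6 fell from 1942 and 2030 to 1329 and 1494 at 12 h (-0.49, adjusted p = 0.00248), while in the EV line with doxycycline it stood at 2535 and 2891 at 12 h, so that the E2F1 change was lower by 0.66 on the log2 scale (-0.66 ± 0.18, adjusted p = 0.00472). Ndufv3, an accessory subunit beside the NADH site, was at 2148 and 2479 at EV 0 h and at 1454 and 1117 at 2 h of serum (-0.86 ± 0.12, adjusted p = 4.34e-06).

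Complex II, whose subunits also belong to the citric acid cycle, divided into its parts. Sdhb, the iron-sulphur subunit, rose over serum to 3072 and 3224 at 12 h from 1943 and 2223 (0.60 ± 0.09, adjusted p = 1.85e-05). Sdhd, a membrane anchor, rose to 3921 and 3870 from 2439 and 2797 (0.58 ± 0.10, adjusted p = 4.8e-05), and in the E2F1 line to 2788 and 3235 from 2322 and 2271 (0.39, adjusted p = 0.00218). Sdha, the flavoprotein that oxidises succinate, fell at 2 h of serum, to 4594 and 4679 from 5932 and 5653 (-0.32 ± 0.07, adjusted p = 0.000834), was still lower at 6 h (-0.28, adjusted p = 0.00255) and was at 5543 and 5779 at 12 h (-0.03). Sdhc, the other membrane anchor, had a 12 h serum change of 0.00 ± 0.12.

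In complex III, Uqcrq, a small subunit beside cytochrome b, rose at each serum time. Its values were 2213 and 2330 at EV 0 h, 3627 and 3775 at 2 h, 4762 and 4463 at 6 h and 5415 and 5900 at 12 h. The 4 pairs did not overlap and increased with time, with log2 changes of 0.70, 1.02 and 1.31 ± 0.10 and an adjusted p of 2.65e-09 at 12 h. Uqcrq held 3027 and 2483 counts in the E2F1 line at 0 h and 2776 and 2889 at 12 h, which overlap (0.05 ± 0.10), and the 12 h changes differed by -1.27 ± 0.14 (adjusted p = 8.42e-07). Uqcrfs1, the Rieske iron-sulphur protein, rose with serum from 1937 and 2244 to 3267 and 3132 at 12 h (0.62 ± 0.10, adjusted p = 3.85e-05). Uqcrc2, a core subunit, was lower in the E2F1 line at 6 h, at 1813 and 1993 against 2428 and 2462 (-0.36 ± 0.10, adjusted p = 0.00453), a fall that missed the threshold without the first 6 h library (-0.29, adjusted p = 0.0584). Uqcrq lies at chr11:53427922-53430831 on the minus strand.

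In complex IV, Cox5a, a matrix-side subunit of cytochrome c oxidase, rose under both stimuli. It went from 933 and 1180 at EV 0 h to 1749 and 1895 at 2 h of serum, 2188 and 2556 at 6 h and 2465 and 2600 at 12 h. In the E2F1 line it went from 1207 and 1144 to 1692 and 1505 at 6 h and 2023 and 1737 at 12 h. Neither series overlapped its 0 h libraries, and the 12 h changes were 1.27 ± 0.13 with serum (adjusted p = 9.24e-08) and 0.67 ± 0.13 with E2F1 (adjusted p = 0.000149). The serum change was larger by 0.60 in log2 (E2F1 minus serum -0.60 ± 0.18, adjusted p = 0.0097), a difference that missed the threshold without the second E2F1 library at 12 h (-0.49, adjusted p = 0.053) or the first EV 0 h library (-0.43, adjusted p = 0.0644). With doxycycline in the EV line Cox5a was at 891 and 1047 at 12 h, and the E2F1 change exceeded that of the EV line by 0.79 ± 0.18 (adjusted p = 0.00115).

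Cox7a2, the widely expressed form of a small subunit whose other form serves muscle, had its larger change in the E2F1 line. The E2F1 line held 1621 and 1529 counts at 0 h, 1954 and 2015 at 6 h and 2652 and 3142 at 12 h. The 12 h libraries were well above all others of that line (0.87 ± 0.13, adjusted p = 1.31e-05), whereas under serum it was at 2367 and 2699 at 12 h against 1724 and 2349 (0.33, adjusted p = 0.0328). That serum call was lost without the first EV 0 h library (0.11, adjusted p = 0.514) or the second serum library (0.23, adjusted p = 0.214), and also with quantile normalization (0.19) and equal totals (0.25). The E2F1 change exceeded the EV doxycycline change by 1.14 ± 0.18 (adjusted p = 4.84e-05). Ndufa4 rose in the E2F1 line from 5445 and 5251 to 7368 and 8079 (0.53 ± 0.09, adjusted p = 6.34e-05) and with serum from 4771 and 5584 to 6625 and 6901 (0.39, adjusted p = 0.00103).

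Cox7a2l, which joins complex III to complex IV in supercomplexes, was the complex IV gene that fell. It was at 7347 and 7994 at EV 0 h, 5964 and 5928 at 2 h of serum, 4107 and 5080 at 6 h and 4257 and 4462 at 12 h. All serum libraries were below both 0 h libraries (-0.37, -0.75 and -0.81 ± 0.09, with an adjusted p of 6.9e-07 at 12 h). The E2F1 line held 5911 and 6036 at 0 h and 5169 and 5775 at 12 h (-0.13, adjusted p = 0.248), and the changes differed by 0.69 ± 0.13 (adjusted p = 0.000391). Cox4i1, the widely expressed form of the largest nuclear subunit, had a 12 h change of -0.19 ± 0.10 with serum (adjusted p = 0.097) and -0.10 with E2F1 (adjusted p = 0.422). The remaining nuclear subunits of complex IV moved between -0.13 (Cox6c) and 0.49 (Cox7b) with serum at 12 h.

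Complex V showed a split among genes for a single protein. Atp5g1, Atp5g2 and Atp5g3 all encode the mature c subunit of the proton-driven rotor and differ in the presequence that takes it into mitochondria. Atp5g1 was at 2249 and 2577 at EV 0 h, 3568 and 3651 at 2 h of serum, 5112 and 4190 at 6 h and 5700 and 5937 at 12 h (0.58, 0.94 and 1.27 ± 0.12, adjusted p = 3.86e-08 at 12 h). All 6 serum libraries were above the 0 h libraries. Atp5g3 rose from 6126 and 6669 to 8413 and 8478, 9104 and 9078, and 9242 and 9692 (0.57 ± 0.09 at 12 h, adjusted p = 1.51e-05), although its 2 h change turned from 0.40 to -0.06 with quantile normalization. Atp5g2 went the other way, from 5222 and 6083 to 3945 and 4025 at 6 h (-0.50 ± 0.10, adjusted p = 0.000226) and 4489 and 4881 at 12 h (-0.27, adjusted p = 0.0242). The 12 h fall was lost without the second EV 0 h library (-0.16, adjusted p = 0.244) or the first serum library (-0.21, adjusted p = 0.158), and with GC and length trends removed (-0.14).

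In the E2F1 line, Atp5g1 alone of these genes had a 12 h change that differed from the serum change past the threshold. Atp5g1 was at 3208 and 2701 at 0 h and 2234 and 2593 at 12 h (-0.29 ± 0.12, adjusted p = 0.0388), a fall that missed the threshold without the first library at 0 h (-0.17, adjusted p = 0.324) or at 12 h (-0.18, adjusted p = 0.289). It was not shown to exceed the change of the EV line with doxycycline (E2F1 minus EV -0.01 ± 0.17, adjusted p = 0.963). The difference from the serum change, -1.56 ± 0.17 (adjusted p = 6.32e-07), kept its side of the threshold in every setting tried. Atp5g3 rose from 6256 and 5978 to 7317 and 8127 (0.33 ± 0.09, adjusted p = 0.00255), a call lost with quantile normalization (0.13, adjusted p = 0.216). For Atp5g2 the E2F1 change at 12 h was 0.02 ± 0.10. The E2F1 change minus the serum change missed the threshold for Atp5g3 (-0.23, adjusted p = 0.124) and Atp5g2 (0.29, adjusted p = 0.0989). A near-identical copy of Atp5g1 exists among the annotated transcripts of other genes. Atp5g1 itself lies at chr11:96068852-96075670, Atp5g2 at chr15:102662864-102672352 and Atp5g3 at chr2:73908447-73911326, all on the minus strand.

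Of the other complex V genes, Atp5b, the catalytic beta subunit, rose with serum from 37368 and 42307 to 59667 and 59926 at 12 h (0.59 ± 0.09, adjusted p = 1.2e-05). Atp5md, a small subunit at the dimer interface, rose from 2044 and 2622 to 3738 and 4245 (0.78 ± 0.13, adjusted p = 3.86e-05) with serum and had a change of -0.29 in the E2F1 line (adjusted p = 0.0619). The changes of Atp5md differed by -1.07 ± 0.18 (adjusted p = 0.000108), and the gene overlaps Taf5. Atp5j, a subunit of the peripheral stalk, rose in the E2F1 line from 2625 and 2318 to 3464 and 4007 at 12 h (0.59 ± 0.09, adjusted p = 1.07e-05), against 0.32 with serum. It overlaps Gabpa, so reads of these genes may not be separable.

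**Figure D3:**
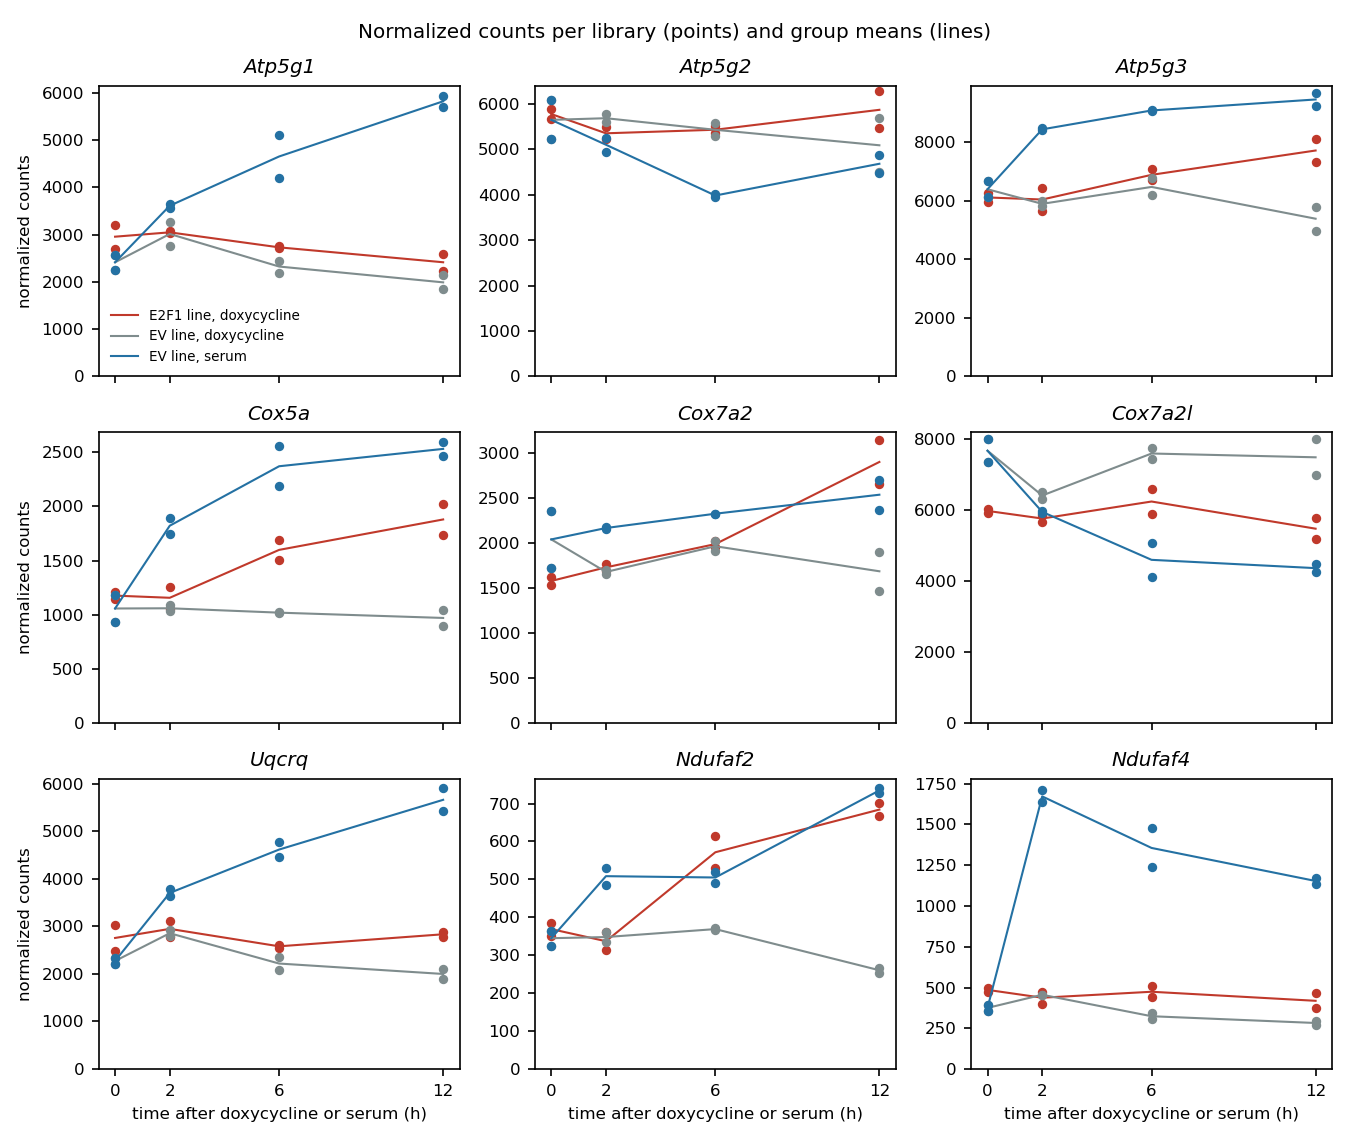
Normalized counts (vertical axis) against hours of treatment for 9 genes; points are libraries and lines join group means (red, E2F1 line with doxycycline; grey, EV line with doxycycline; blue, EV line with serum). Atp5g1 and Uqcrq climb with time on the blue line, Ndufaf4 peaks there at 2 h, Cox7a2 reaches its highest values on the red line and Cox7a2l falls on the blue line.

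Fewer members passed the threshold in the E2F1 line. At 2 h of doxycycline limma called 0 of the 84 genes, and 0 had an unadjusted p under 0.05, beside 1.86% of all genes called (0.865% higher, 0.99% lower). At 6 h 6 were higher and 4 lower, beside 51.7% of all genes (28.8% higher, 22.9% lower). Those higher were Ndufaf2, Cox5a, Cox7a2, Ndufa4, Atp5c1 and Atp5j, and Ndufb2, Ndufaf7 and Uqcrc2 were among those lower. This split turned with the scaling, to 2 higher and 34 lower with quantile normalization, 2 and 22 with equal totals and 13 and 4 with GC and length trends removed, as the median of all genes moved from -0.03 to -0.14 and -0.15 under the first pair. The count of 10 was 5 without the second library at 0 h, 6 without the first at 6 h and 4 without the second at 6 h.

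At 12 h of E2F1, 18 members were higher (21.4%) and 10 lower (11.9%), beside 61.5% of all genes (31.8% higher, 29.7% lower), and the median change was 0.03 against -0.02. Complex I was even, with 6 higher and 6 lower, complex IV had 4 and 0 and complex V 5 and 3. With quantile normalization 16 were higher and 24 lower and with equal totals 16 and 15, and with GC and length trends removed 23 and 15. Most of the falls rested on single libraries. Ndufb2 missed the threshold when any of the 4 libraries was left out, with adjusted p from 0.0506 to 0.0938. Atp5e, at 2268 and 2326 against 1555 and 2053 (-0.36), did so without the second library at 0 h (-0.34, adjusted p = 0.0624) or the first at 12 h (-0.16, adjusted p = 0.282). Ndufa7 (-0.38) was lost without the same libraries (-0.34, adjusted p = 0.0654, and -0.19, adjusted p = 0.215), and so was Ndufv3 (-0.41), at -0.34 (adjusted p = 0.0667) and -0.30 (adjusted p = 0.0934).

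In the EV line with doxycycline few members were called. At 2 h 2 were higher and 0 lower, beside 7.35% of all genes (4.93% higher, 2.43% lower), and 8 genes had an unadjusted p under 0.05. The count was 0 without the second EV 0 h library or the second library at 2 h, and 1 without the first at 2 h. Uqcrq (0.33) was among those higher, a call that was lost without the first or second EV 0 h library (0.29, adjusted p = 0.176, and 0.37, adjusted p = 0.0994) and without the first or second library at 2 h (0.36, adjusted p = 0.108, and 0.29, adjusted p = 0.249). At 6 h limma called 0 genes, with 1 at an unadjusted p under 0.05, beside 0.134% of all genes (0.134% higher, 0% lower). At 12 h 1 gene, Cox7c, was lower (-0.42), beside 4.17% of all genes (0.749% higher, 3.42% lower), and 20 had an unadjusted p under 0.05, all lower. The median change at 12 h was -0.15, which came with -0.24 in the first library and -0.06 in the second. Without the second EV 0 h library (-0.27, adjusted p = 0.565) or the first at 12 h (-0.28, adjusted p = 0.378) the fall of Cox7c was lost, and the count was 0 in each case, while it was 4 without the first EV 0 h library and 3 without the second at 12 h.

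When the EV change was subtracted from the E2F1 change, 0 genes differed at 2 h by limma, with 4 at an unadjusted p under 0.05, beside 0.143% of all genes (0.0535% higher, 0.0892% lower). At 6 h 5 were higher and 0 lower, beside 34.5% of all genes (22.2% higher, 12.3% lower), and with quantile normalization 1 was higher and 5 lower. The 5 were Ndufaf2, Cox5a, Ndufa4, Atp5j and Ndufab1, and leaving out single libraries gave counts from 0 to 9. Those counts were 3 and 2 without the first or second E2F1 library at 0 h, 2 without either at 6 h, 9 and 0 without the first or second EV library at 0 h, and 0 and 1 without the first or second EV library at 6 h. At 12 h 23 were higher and 1, Ndufa6, lower, beside 50.5% of all genes (27.3% higher, 23.3% lower). The median difference of 0.18 combined a median of 0.03 in the E2F1 line with -0.15 in the EV line. With quantile normalization 17 were higher and 5 lower, and with equal totals 17 and 4.

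Against the EV line with doxycycline at the same 12 h, serum had 63 members higher (75%) and 5 lower (5.95%), beside 70.4% of all genes (37.9% higher, 32.5% lower), with a median of 0.47. The splits were 53 and 8 with quantile normalization and 58 and 6 with equal totals. This comparison shares its serum libraries with the one against 0 h. Ndufaf4 (2.03 ± 0.14), Atp5g1 (1.55 ± 0.12), Uqcrq (1.50 ± 0.10), Ndufaf2 (1.49 ± 0.13) and Cox5a (1.39 ± 0.13) were the genes with changes over 1.3 that are named above. At 0 h the lines themselves differed in 4 members, beside 15% of all genes (8.86% higher, 6.17% lower): Ndufs1 was higher in the E2F1 line (0.35) and Uqcrc2 (-0.44), Cox7a2l (-0.36) and Ndufab1 (-0.35) were lower. That count was 2 without the first E2F1 library and 1 without the second EV library. Ndufs1 was lost without the first library of either line (0.30, adjusted p = 0.117, and 0.33, adjusted p = 0.0702), and without the second EV library Uqcrc2 (-0.37, adjusted p = 0.0521), Cox7a2l (-0.30, adjusted p = 0.106) and Ndufab1 (-0.29, adjusted p = 0.0829) were lost. Without the first or second E2F1 library Cox7a2l had an adjusted p of 0.101 or 0.065 and Ndufab1 one of 0.0654 or 0.0526.

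**Figure D4:**
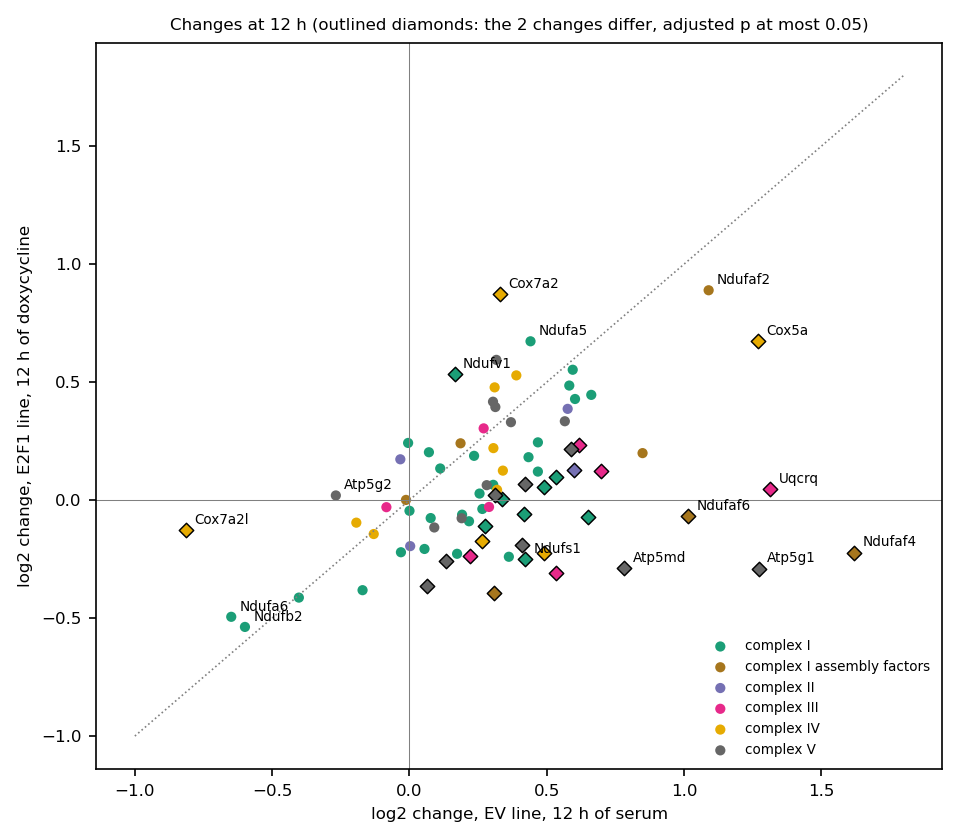
Log2 change at 12 h with serum in the EV line (horizontal axis) and with doxycycline in the E2F1 line (vertical axis) for all but 1 of the 84 genes, coloured by complex; outlined diamonds are genes whose changes differed at an adjusted p of at most 0.05. Ndufaf4, Uqcrq and Atp5g1 lie far to the right near or below 0 on the vertical axis, and Cox7a2 lies highest with Ndufaf2.

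A direct test of the 12 h changes, E2F1 line minus serum in the EV line, gave 3 members higher and 27 lower, beside 48.8% of all genes (25% higher, 23.8% lower), with a median of -0.23 against 0.02. The lines and the stimuli differ together here and cannot be told apart. Cox7a2l, Cox7a2 and Ndufv1 were the 3 that were higher. Of these Cox7a2 (0.55) missed the threshold without the second E2F1 library at 0 h (0.50, adjusted p = 0.0607) or at 12 h (0.42, adjusted p = 0.0973), the second EV 0 h library (0.32, adjusted p = 0.136) or the first serum library (0.45, adjusted p = 0.0844). By complex the counts were 1 higher and 7 lower in complex I, 0 and 3 among its assembly factors, 0 and 1 in complex II, 0 and 5 in complex III, 2 and 3 in complex IV and 0 and 8 in complex V. With GC and length trends removed 8 were higher and 18 lower. The 18 genes that rose with E2F1 at 12 h were all among the 51 that rose with serum, which is 100% of the first list and 35.3% of the second. Over all genes 2131 were higher in both, 59.7% of the E2F1 list and 52.8% of the serum list. Ndufa6, Ndufb2 and Ndufv3 were among those lower in both, and Atp5g1 and Ndufs1 were lower in the E2F1 line and higher with serum. For Atp5g1 and Ndufs1 the E2F1 change minus the EV change at 12 h of doxycycline was -0.01 (adjusted p = 0.963) and -0.02 (adjusted p = 0.911). Neither fall was thus shown to exceed the change of the EV line. The 12 h serum fall of Ndufb2 (-0.60) was lost without the first EV 0 h library (-0.35, adjusted p = 0.177) or the second serum library (-0.55, adjusted p = 0.0567), and that of Ndufv3 (-0.40) without the second EV 0 h library (-0.30, adjusted p = 0.0823) or the first serum library (-0.26, adjusted p = 0.122).

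Other genes of the pathway were counted from lists of the same biology. Of 20 genes for electron carriers and entry points, 10 were higher and 3 lower at 12 h of serum (all genes, 36% and 29.7%). At 12 h of E2F1, 7 were higher and 4 lower (all genes, 31.8% and 29.7%). Cycs, which encodes cytochrome c, was at 1209 and 1458 at EV 0 h, 4930 and 4392 at 2 h of serum and 5654 and 5442 at 12 h. In the E2F1 line it was at 1888 and 1578 at 0 h, 3522 and 3169 at 6 h and 4184 and 4262 at 12 h. Both series lay wholly above their 0 h libraries, and the 12 h changes were 2.06 ± 0.12 (adjusted p = 2.79e-10) and 1.29 ± 0.12 (adjusted p = 7.62e-08). Cyc1, the cytochrome c1 of complex III, which the symbol rule does not take in, rose by 0.92 ± 0.08 with serum (adjusted p = 3.18e-08) and 0.25 with E2F1 (adjusted p = 0.0141).

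Of 10 mitochondrially encoded subunits listed, limma called 0 at 12 h of serum and 0 at 12 h of E2F1, with 0 at an unadjusted p under 0.05 in both, and medians were -0.13 and -0.11. Libraries were made from polyadenylated RNA. Over all genes, 36% were higher and 29.7% lower at 12 h of serum, 31.8% and 29.7% at 12 h of E2F1, and 25% and 23.8% in the direct test of those changes. Of 43 assembly factors outside the symbol rule, 21 were higher and 5 lower at 12 h of serum and 8 and 11 at 12 h of E2F1. Of 20 genes of the citric acid cycle and pyruvate dehydrogenase, 12 were higher and 1 lower with serum and 7 and 5 with E2F1, and in the direct test 0 were higher and 13 lower. Among 78 mitochondrial ribosomal protein genes 60 were higher and 2 lower at 12 h of serum and 30 and 3 at 12 h of E2F1, while of 91 cytosolic ribosomal protein genes 12 were higher and 53 lower, and 5 and 69.

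Of 15 transcriptional regulators of mitochondrial genes, 3 were higher and 1 lower at 12 h of serum (all genes, 36% and 29.7%) and 8 and 4 at 12 h of E2F1 (all genes, 31.8% and 29.7%). Pprc1, a coactivator of the PGC-1 family that responds to serum, was at 2822 and 2302 at EV 0 h, 9746 and 9330 at 2 h of serum and 6383 and 5955 at 12 h (1.90 ± 0.11 at 2 h, adjusted p = 2.98e-11). In the E2F1 line it rose at 6 h (0.55, adjusted p = 0.00038) and was lower at 12 h (-0.45, adjusted p = 0.00161). The E2F1 change of Pprc1 minus the EV change was 0.57 at 6 h of doxycycline (adjusted p = 0.0074). At 12 h it was -0.17 and missed the threshold (adjusted p = 0.37). Nrf1, a factor that binds many promoters of this pathway, was at 1140 and 1059 in the E2F1 line at 0 h and 2271 and 2211 at 12 h (1.03 ± 0.10, adjusted p = 6.56e-08), and under serum its 12 h change was 0.14 (adjusted p = 0.23). The difference of the Nrf1 changes was 0.89 ± 0.14 (adjusted p = 4.04e-05). Tfam, which packages and transcribes mitochondrial DNA, rose in both, by 0.94 ± 0.07 with E2F1 (adjusted p = 7.07e-09) and 0.66 with serum (adjusted p = 4.37e-07). Ndufaf4, Cycs and Pprc1 thus stood high from 2 h of serum, and Uqcrq, Cox5a and Atp5g1 were highest at 12 h.

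Promoter sequence was available for 72 of the 86 genes from RefSeq (build GRCm38.p6), as 300 bases from 250 before to 50 after the start. Letters of the NRF1 motif, GCGCANGCG on either strand, were in a promoter of 30.6% of these 72 members. This stood against 7.03% of the 27025 genes with a RefSeq promoter and 16.6% of the 8672 that are also in the count table. The ETS letters CCGGAAG, bound by GABP, were in 26.4% against 9.93% and 21.8%, and the YY1 letters AAGATGGC in 15.3% against 3.19% and 5.74%. E2F letters (TTTCCCGC, TTTGGCGC, TTTCGCGC or TTTGCCGC) were in 2 members, 2.78% against 2.6% and 5.1%. The NRF1 letters were in 32.6% of the 46 members with a promoter that were higher at 12 h of serum and in 27.8% of the 18 that were higher at 12 h of E2F1. NRF1 letters can match both strands at neighbouring positions, and the motifs were counted without regard to overlap. A match is a description of letters, and its absence says only that they are not in this window.

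The 150 bases before the RefSeq start follow for 4 members, because they show what these letters look like in genes that moved differently: Cox5a, which rose with both stimuli, and Cox8a, with a 12 h serum change of 0.34, hold the E2F letters, Ndufaf4, with the largest serum rise, holds NRF1 letters, and Cox7a2l, which fell with serum, holds none of the motifs in this window. The RefSeq start of Cox7a2l lies inside the gene's GENCODE span, which reaches further upstream, and the stretch shown is therefore within that span. The serum call of Cox8a was lost without the first EV 0 h library (0.17, adjusted p = 0.215) or the second serum library (0.29, adjusted p = 0.0741). Each is 5′ to 3′ on the gene's strand, with matches in capitals.
Cox5a, chr9:57521082-57521231, plus strand, E2F letters in capitals: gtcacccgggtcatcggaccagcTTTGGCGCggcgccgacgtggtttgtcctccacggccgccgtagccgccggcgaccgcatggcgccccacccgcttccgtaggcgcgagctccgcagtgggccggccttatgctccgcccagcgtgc
Cox8a, chr19:7217617-7217766, minus strand, E2F letters on the opposite strand and, at the end, part of an ETS match that runs past the start: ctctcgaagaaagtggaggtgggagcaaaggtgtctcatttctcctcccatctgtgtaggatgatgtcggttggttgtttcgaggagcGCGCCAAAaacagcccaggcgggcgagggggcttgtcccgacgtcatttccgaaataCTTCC
Ndufaf4, chr4:24897933-24898082, plus strand, overlapping NRF1 letters on both strands: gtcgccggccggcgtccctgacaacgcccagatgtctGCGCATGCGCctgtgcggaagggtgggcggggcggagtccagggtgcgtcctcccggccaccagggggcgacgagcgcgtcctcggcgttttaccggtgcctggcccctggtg
Cox7a2l, chr17:83514334-83514483, minus strand, no match: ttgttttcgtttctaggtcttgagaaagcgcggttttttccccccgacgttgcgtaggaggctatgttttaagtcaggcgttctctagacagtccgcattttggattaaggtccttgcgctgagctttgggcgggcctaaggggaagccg
The E2F letters start 127 bases before the start of Cox5a and 62 before that of Cox8a, and the NRF1 letters of Ndufaf4 start 113 and 112 bases before it.

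Counting by gene carries limits that differ among the members. In 14 of the 84 genes a stretch of at least 300 bases was at least 95% identical to an annotated transcript of another gene. Copies without an annotated transcript were not looked for. Without those 14 the 12 h serum count was 41 higher and 6 lower of 70. Another gene overlapped 38 of the 84, and among the 40 with neither, 25 were higher and 3 lower with a median of 0.31. The members' median exonic length of 1737 bases was below the 4548 of all genes, and their median GC content of 49.73% was close to the 49.38% of all genes.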

How the data were processed

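RNA-seq libraries (polyadenylated RNA, paired 150-base reads) were made by the authors from 22 samples in 11 groups of 2. The submitters' processing notes name FastQC, Trimmomatic, HISAT2, featureCounts, DESeq2 and the mm10 build, without roles. The deposited table holds whole-number normalized counts for 11208 genes, treated here as a score. How the authors scaled them is not given in the sources used here, and the counts before scaling were not recovered here. The lowest gene mean was 99.6, so genes of low expression are not in it and a minimum of 10 in 2 libraries removed none. The authors' deposited comparison tables give log2 fold changes and p-values, and list 2 to 1268 genes each. Members are listed in 1 of the 9, that of 2 h of serum with 1268 genes, where Ndufaf4 has a log2 fold change of 2.17. The authors' table for 12 h of serum lists 726 genes and 0 members. At that time 7367 genes, 57 members among them, were called here. The criteria behind the authors' lists were not matched here, so these counts cannot be compared directly. Those tables name a serum 0 h group, taken as EV 0 h.

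Values were taken as log2(value + 1), and limma 3.58.1 (R 4.3.3, lmFit and eBayes with trend) was fitted to all 22 libraries with 1 mean per group and 11 residual degrees of freedom. The Benjamini-Hochberg adjustment covered all 11208 genes within a comparison, and 0.05 was the threshold. Fold changes are on the log2(value + 1) scale. Tests are two-sided. Complexes and lists were described by counts and medians, without a set test. The members, the lists and the tests were chosen with earlier results of these data known. Named genes were a fixed set plus, in each comparison, up to 5 members with the largest rise and up to 5 with the largest fall past the threshold, with a mean of at least 50 and libraries that did not overlap; the others named were chosen after their values were seen. Coordinates, lengths and overlaps are from GENCODE M21 (GRCm38), in which all 11208 gene identifiers were found, 10977 with the same version. Copies were sought with blastn 2.17.0 among GENCODE M21 transcripts of other genes that do not overlap the member. Promoters are from RefSeq. The values of 1 member, which is in the counts and medians, are not reported here. The fit was tested on simulated data with known log2 changes at 12 h of serum. It called 45 of 100 genes changed by 0.5 and 89 of 100 changed by 1 in the right direction, and 7 of 11008 unchanged genes. A gene that was not called may therefore still have changed. Of the 11208 genes in those data 11008 were unchanged, whereas 65.7% of all genes were called at 12 h of serum. The adjustment depends on how many genes differ, so 45 and 89 of 100 hold for those data only. How often the fit finds such changes when as many genes differ as with serum was not tested. Alternatives were another pseudocount (8), a minimum mean of 500, quantile normalization, equal totals, a replicate block, only the groups compared and each library left out. Chosen after seeing the data were leaving out the EV libraries at 2 h of doxycycline, removing trends over GC content and length, and leaving out genes with near-identical copies.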

Additional observations from a re-analysis of the deposited data

Results flagged for a closer look

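Differences between groups in the response to a treatment, tested as a difference of changes with limma, were as follows on the log2 scale. For the E2F1 line minus the EV line at 6 h of doxycycline the differences were 0.53 for Ndufaf2, 0.48 for Cox5a, 0.44 for Ndufa4, 0.35 for Atp5j and 0.33 for Ndufab1. The count of these 5 genes fell to 0 without the second EV library at 0 h and without the first EV library at 6 h.

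At 12 h of doxycycline the differences were 1.29 for Ndufaf2, 1.14 for Cox7a2, 1.00 for Ndufa5, 0.86 for Atp5j, 0.79 for Cox5a and -0.66 for Ndufa6, and all 6 kept their side of the threshold without any 1 library.

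For the E2F1 line with doxycycline minus the EV line with serum at 12 h, the differences were 0.69 for Cox7a2l, 0.55 for Cox7a2 and 0.37 for Ndufv1, and -1.84 for Ndufaf4, -1.56 for Atp5g1, -1.27 for Uqcrq, -1.08 for Ndufaf6 and -1.07 for Atp5md. That of Ndufaf6 missed the threshold without the second EV library at 0 h (-0.82, adjusted p = 0.0541), and that of Cox7a2 when any 1 of 4 libraries was left out, as given above. In this comparison the lines and the stimuli differ together and cannot be told apart.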

How the results depend on the processing

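With 2 libraries in a group, the spread is estimated across groups. Of 446 values of named genes, 164 passed the threshold, 113 of them in every setting that kept all libraries and 91 in every setting. A pseudocount of 8, a minimum mean of 500 and leaving out genes with a copy or the EV libraries at 2 h of doxycycline moved no count of called genes by over 1.5 times, and the cause of the other shifts was not tested.

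With quantile normalization the count called at 6 h of E2F1 was 36 and at 2 h of EV doxycycline 1. Median changes then were -0.21 (E2F1 6 h), -0.122 (E2F1 12 h), -0.0918, -0.0351 and 0.162 (serum 2, 6 and 12 h), -0.175 and 0.0248 (E2F1 minus EV, 6 and 12 h) and 0.337 (serum against EV doxycycline, 12 h). Reversed were Atp5c1 (-0.00487, E2F1 6 h), Ndufa4 (-0.0272, serum 6 h), Ndufv1 (-0.0129, serum 12 h) and, at 2 h of serum, Atp5b (-0.0897), Atp5g3 (-0.0598), Cox6b1 (-0.106), Cox8a (-0.167), Ndufa4 (-0.0269) and Ndufs1 (-0.036). With equal totals the count was 24 at 6 h of E2F1 and 7 between lines at 0 h, medians were -0.175 (E2F1 6 h), -0.229, -0.0875 and 0.228 (serum), -0.106 and 0.108 (E2F1 minus EV, 6 and 12 h) and 0.383 (serum against EV doxycycline), and reversed at 2 h of serum were Cox6b1 (-0.115), Cox8a (-0.0707) and Ndufs1 (-0.145). With GC and length trends removed the counts were 17 (E2F1 6 h) and 10 (E2F1 minus EV, 6 h), and medians 0.0197 (E2F1 6 h), 0.0501 and 0.195 (serum 6 and 12 h), -0.122 (E2F1 minus serum) and 0.327 (serum against EV doxycycline).

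With the groups compared alone in the fit, counts were 0 at 2 h and 0 at 12 h of EV doxycycline, 3 for E2F1 minus EV at 6 h and 1 between lines. The labels tie replicate numbers to no shared culture or day, and the numbers were not taken as pairing the samples. Over 55 pairs of groups the correlation of deviations ran from -0.277 to 0.455, with 18 above 0.1. Among 0, 6 and 12 h of doxycycline it was 0.303 to 0.455 in the EV line and 0.142 to 0.357 in the E2F1 line, a hint of pairing from the data. The 2 h libraries did not share it. Between 2 h and the other times of the same line it was -0.161 to -0.0137 in the EV line and -0.277 to -0.148 in the E2F1 line. With a replicate block the count was 4 at 2 h of EV doxycycline and 8 for E2F1 minus EV at 6 h, and the other counts stayed within 1.5 times.

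Without 1 library, counts ranged from 4 to 7 (E2F1 6 h), 0 to 3 (EV 2 h), 0 to 4 (EV 12 h), 0 to 9 (E2F1 minus EV, 6 h) and 1 to 4 (between lines), and medians from -0.0273 to 0.107 (E2F1 12 h), -0.078 to 0.0529 (EV 2 h), -0.113 to 0.0136 (EV 6 h), -0.243 to -0.057 (EV 12 h), 0.0736 to 0.205 and 0.043 to 0.191 (serum 2 and 6 h), 0.247 to 0.381 (serum 12 h), -0.0781 to 0.0716 and 0.0794 to 0.27 (E2F1 minus EV, 6 and 12 h), -0.318 to -0.145 (E2F1 minus serum), 0.391 to 0.569 (serum against EV doxycycline) and -0.0686 to 0.0587 (between lines).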
